A study of Mus musculus with 2 samples.

Results

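The tubulin alpha and beta genes were followed in wild-type mouse embryonic stem cells, in RNA made during a short pulse and in RNA from before it. They were the 10 genes Tuba1a, Tuba1b, Tuba1c and Tuba4a (alpha) and Tubb2a, Tubb2b, Tubb3, Tubb4b, Tubb5 and Tubb6 (beta), chosen by symbol among the protein-coding transcripts of GENCODE M21. Of 18 such transcripts in that annotation, 17 were in the deposited table, out of 49490 protein-coding transcripts in all, and all 17 passed the filter on low values. The genes form 10 of the 14127 protein-coding genes of the main gene set, which had a mean exon value of the libraries above 1 and exon values above 0 in both.

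The cells were feeder-depleted DTCM23/49 XY embryonic stem cells, grown on gelatin with leukemia inhibitory factor. They received 200 µM 4-thiouridine (4sU), a uridine analogue that enters RNA as it is transcribed, for 10 min. The RNA that took up 4sU was bound to beads through biotin and is called labeled RNA, and what stayed in solution is called unlabeled RNA. Each pool was sequenced as 1 library of replicate 1, so there are 2 libraries, no difference below has a replicate check, and no test was made. The second library carries the word preexisting in its description and the word total in its title and its RNA field. It is read here as the unlabeled pool. The values are relative abundances per length, called TPM by the authors, although a column adds up to 10 times what TPM would give. Read depth is unknown, so no counting error could be given. Intron values made up 15.4% of all signal in labeled RNA and 6.26% in unlabeled RNA.

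Alpha and beta tubulin proteins pair into the heterodimers that microtubules are built from. Their genes are close copies of each other, expressed in different proportions in different tissues, and the proteins differ most in the acidic tail at their end, which is the site of many modifications. Cells also adjust tubulin mRNA to the amount of free tubulin: when soluble dimers are in excess, the factor TTC5 recognises the first residues of tubulin as they leave the ribosome, and the mRNA is degraded with the help of SCAPER and the CCR4-NOT deadenylase. TUBB3, TUBB2B and TUBA1A are known above all from neurons, TUBB5, TUBB4B and TUBA1B from dividing cells.

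The first 30 coding bases are shown because they encode the first residues, which this feedback reads. They were taken from the GENCODE M21 transcripts on GRCm38, run 5′ to 3′, and have the first 4 codons in capitals. For Tuba4a, the sequence is of transcript Tuba4a-202, which has a complete coding sequence.
Tuba1a: ATGCGTGAGTGCatctccatccatgttggc
Tuba1b: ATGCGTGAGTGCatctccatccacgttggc
Tuba1c: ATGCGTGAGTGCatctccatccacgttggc
Tuba4a: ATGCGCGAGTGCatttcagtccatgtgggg
Tubb2a: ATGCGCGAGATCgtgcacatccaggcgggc
Tubb2b: ATGCGAGAGATCgtgcacattcaggcgggc
Tubb3: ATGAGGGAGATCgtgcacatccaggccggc
Tubb4b: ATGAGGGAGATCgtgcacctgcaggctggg
Tubb5: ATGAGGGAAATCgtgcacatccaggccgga

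Tuba1a, Tuba1b and Tuba1c had the same 12 first bases, and so had Tubb3 and Tubb4b. Among 44525 complete coding sequences of the annotation, no gene outside the 10 began with any of these runs. This compares bases only. Different runs can encode the same residues, and the residues were not compared among the 10 or with other genes. Over the whole coding sequence, Tuba1a and Tuba1b were 98.3% identical, Tuba1b and Tuba1c 97.9%, and Tuba1a and Tuba1c 97.1%. Tuba4a stood apart, at 84.7 to 85.3% identity with these 3 genes. Among the beta genes only Tubb2a and Tubb2b were that close, at 96.5%, and the other pairs lay between 80.3 and 85.9%.

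The last 45 coding bases encode the tail in which the isotypes differ, and are shown with the stop codon in capitals for Tuba1c, Tuba4a, Tubb5 and Tubb3.
Tuba1c: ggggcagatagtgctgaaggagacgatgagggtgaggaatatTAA
Tuba4a: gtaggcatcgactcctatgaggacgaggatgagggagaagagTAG
Tubb5: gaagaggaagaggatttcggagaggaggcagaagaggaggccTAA
Tubb3: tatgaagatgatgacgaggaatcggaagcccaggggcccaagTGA

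The likeness of these genes bears on every value below, since a read that lies wholly in a shared stretch can belong to more than 1 gene. It was measured as the share of all runs of 50 bases in the leading transcript, the one with the highest mean exon value of its gene, that also occur in a transcript of another gene. The share was 73.8% for Tuba1b, 72.9% for Tuba1a and 61.0% for Tuba1c. It was 50.9% for Tubb4b, 49.6% for Tubb2a and 39.3% for Tubb2b. Tuba4a shared 2.68%, Tubb5 shared 0.115%, and Tubb3 and Tubb6 shared none. With runs of 100 bases the shares were 69.5% for Tuba1b, 65.1% for Tuba1a, 53.4% for Tuba1c, 29.2% for Tubb4b, 36.9% for Tubb2a and 27.7% for Tubb2b, and none for the other 4 genes. The exon values of Tuba4a, Tubb3, Tubb5 and Tubb6 thus rest mostly on sequence of their own, and those of the other 6 genes are uncertain between near-identical copies.

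The partners of Tuba1a, Tuba1b and Tuba1c were each other and 9 further genes that held at least 10% of the windows of a member. Of these, 8 are processed pseudogenes, and Gm49450 is a protein-coding model of 4 exons at chr15:98932137-98953551 on the minus strand, which reaches from within Tuba1b to within Tuba1a. The table gave Gm49450 an exon value of 2140 in labeled and 3751 in unlabeled RNA. The processed pseudogene Gm17383 had 2051 and 3696, and Gm14150 had 1409 and 2694. Together the 7 sharing genes that were in the table had 7939 in labeled and 14640 in unlabeled RNA, more than the 5899 and 9439 of Tuba1a, Tuba1b and Tuba1c together. Summing all of them as 1 unit gave a labeled to unlabeled exon ratio of 0.575, against 0.625 for the 3 members alone. Tubb4b-ps1 and Tubb4b-ps2, which share windows with Tubb4b, had 557 and 795 together, and their sum with Tubb4b had a ratio of 0.731. How many reads moved between copies was not tested.

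**Figure D1:**
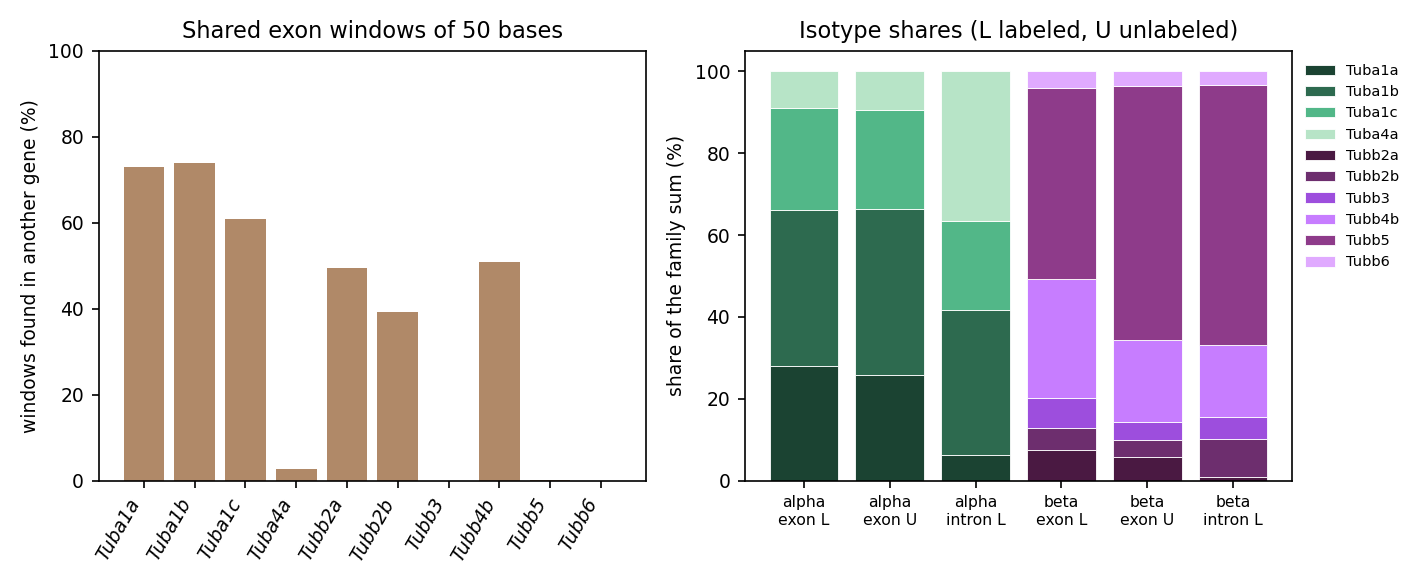
Left, percent of 50-base windows of each gene's leading transcript that occur in another gene. Right, share of each gene in the summed exon or intron value of its family in labeled (L) and unlabeled (U) RNA. Tuba1b reaches 73.8% shared windows and Tubb3 and Tubb6 none, and Tubb5 takes 46.7% of beta exon RNA in labeled and 62.1% in unlabeled RNA.

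Tubulin mRNA was abundant. Tuba1b, at chr15:98931425-98934565 on the minus strand, had an exon value of 2455 in labeled and 4214 in unlabeled RNA and ranked 151 of 14127 genes by the mean of the libraries. Tuba1a, at chr15:98949837-98953703 on the same strand, had 1823 and 2691 and ranked 242. Tuba1c, at chr15:99029891-99038110 on the plus strand, had 1621 and 2535 and ranked 267. These 3 neighbours on chromosome 15 carried most of the alpha tubulin RNA. Tuba4a, on the minus strand of chromosome 1, where Tuba4a-202 covers chr1:75214228-75219294, and represented by 7 protein-coding transcripts, was lower, with 580.2 and 976.

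The beta genes spread over a wider range. Tubb5, at chr17:35833921-35838306 on the minus strand, led with 843 in labeled and 2123 in unlabeled RNA and ranked 394. Tubb4b, at chr2:25222160-25224702 on the minus strand, followed with 522 and 681. The remaining 4 were lower. Tubb2a and Tubb2b, neighbours on the minus strand at chr13:34074274-34078007 and chr13:34126748-34130354, had 137 and 199, and 96.6 and 139. Tubb3, the isotype used as a marker of neurons, at chr8:123411424-123422015 on the plus strand, had 133 and 157. Tubb6, on chromosome 18, was the lowest of the 10 with 74.0 and 122, which is still above the median mean exon value of the main genes of 38.1. The order by unlabeled RNA was Tuba1b, Tuba1a, Tuba1c, Tubb5, Tuba4a, Tubb4b, Tubb2a, Tubb3, Tubb2b and Tubb6, and neighbours in that order cannot be separated from error without replicates.

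Summed per family, alpha tubulin had 6479 in labeled and 10415 in unlabeled RNA, and beta tubulin had 1805 and 3421. Over protein-coding transcripts alone, the exon sum of the alpha genes was therefore 3.59 times that of the beta genes in labeled RNA. In unlabeled RNA it was 3.04 times. This quotient was not computed with other biotypes or with the genes that share windows. Within the alpha family the order of the genes was the same in both pools. Tuba1b made up 37.9% of labeled and 40.5% of unlabeled alpha RNA, Tuba1a 28.1% and 25.8%, Tuba1c 25.02% and 24.3%, and Tuba4a 8.96% and 9.37%. Within the beta family Tubb5 made up 46.7% of labeled and 62.1% of unlabeled RNA, while Tubb4b went the other way, with 28.9% and 19.9%. Tubb2a had 7.60% and 5.83%, Tubb3 7.35% and 4.59%, Tubb2b 5.35% and 4.06%, and Tubb6 4.10% and 3.55%. Tubb5 was thus the only beta gene with a lower share in labeled than in unlabeled RNA. The shares depended on the transcripts counted. With all biotypes Tubb5 made up 61.9% of labeled and 73.7% of unlabeled beta RNA, and with the leading transcript alone 36.1% and 53.2%. Tuba1b moved less, to 43.2% and 46.8% of alpha RNA with all biotypes and 40.5% and 43.6% with the leading transcript alone.

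**Figure D2:**
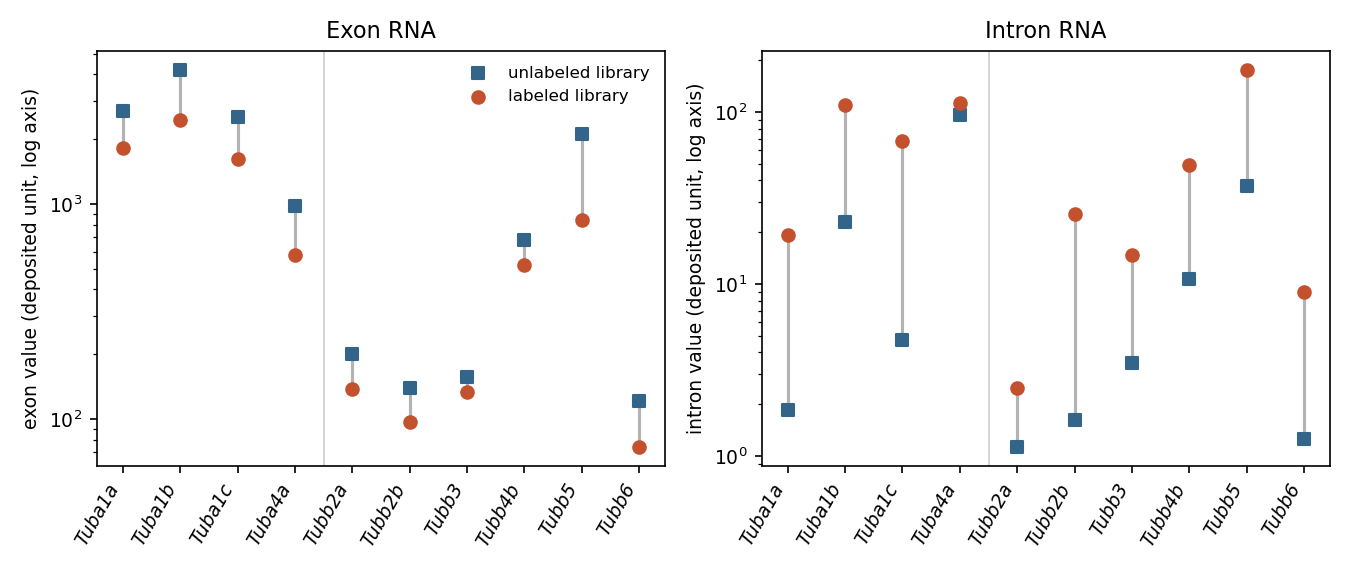
Exon values (left) and intron values (right) of the 10 genes in the labeled library (circles) and the unlabeled library (squares), both on log axes in the deposited unit, with a grey line joining the libraries. Each point is 1 library. All exon values are lower in labeled RNA and all intron values are higher there, and the pair for Tuba4a introns, 112.7 and 96.1, is the closest.

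The labeled to unlabeled exon ratio compares what was made during the pulse with what was there before it. Since the libraries have no common scale, each ratio was set against the median ratio over the 14127 genes, which was 0.837, and a gene was counted as high or low where it lay 2-fold or more from it. All 10 tubulin genes had a ratio below 1, as had 58.7% of all genes. Of the 10, 9 lay below the median, beside 50.0% of all genes. Only Tubb5 was 2-fold or more below, beside 14.8% of all genes, and none was 2-fold or more above, beside 21.9%. The median of the 10 ratios was 0.658, which is −0.35 on the log2 scale relative to the median gene.

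Tubb5, the main beta tubulin of these cells, had the lowest ratio of the 10, at 0.397. It lay 2.11-fold below the median gene, at percentile 13.1 of all genes. The alpha genes lay close to each other, with 0.583 for Tuba1b, 0.594 for Tuba4a, 0.640 for Tuba1c and 0.677 for Tuba1a. Tuba4a, which shares almost no windows with the others, fell within the range of the 3 that do. Among the smaller beta genes the ratio was 0.608 for Tubb6, 0.688 for Tubb2a and 0.696 for Tubb2b. Tubb4b, at 0.766, and Tubb3, at 0.846 and percentile 50.5, came nearest to the median gene.

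The exon ratio moved with gene length and level over all genes. Its median was 1.27 in the second decile of exonic length and 0.597 in the tenth, and it was 1.43 in the lowest decile of mean exon value and 0.603 in the highest. The tubulin genes lay in deciles 3 to 6 of length and in deciles 7 to 10 of level. Set against genes of the same length decile, all 10 lay below the median, beside 50.0% of all genes. Their own median was −0.53 on the log2 scale, and only Tuba4a, at −1.02, was 2-fold or more below, beside 14.0% of all genes. The length used was that of the leading transcript. For Tuba4a this is the short Tuba4a-206 of 1205 bases, in decile 3, whose median ratio was 1.20. Tuba4a-202, which has a complete coding sequence, has 2840 bases, a length of decile 7, whose median ratio was 0.718. The call for Tuba4a thus depends on the transcript that gives the length. Set against genes of the same level decile, 6 lay below, beside 50.0%, and none 2-fold or more below, beside 14.2%. The median was then −0.01. Tubb5 remained the lowest of the 10 on this scale, at −0.60, followed by Tubb6 at −0.26, while Tuba1b, Tuba4a, Tubb2a and Tubb2b lay no further than −0.05 from the genes of their level. Tubb4b, at 0.34, and Tubb3, at 0.28, were the highest. Both centrings were chosen after the values had been seen.

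**Figure D3:**
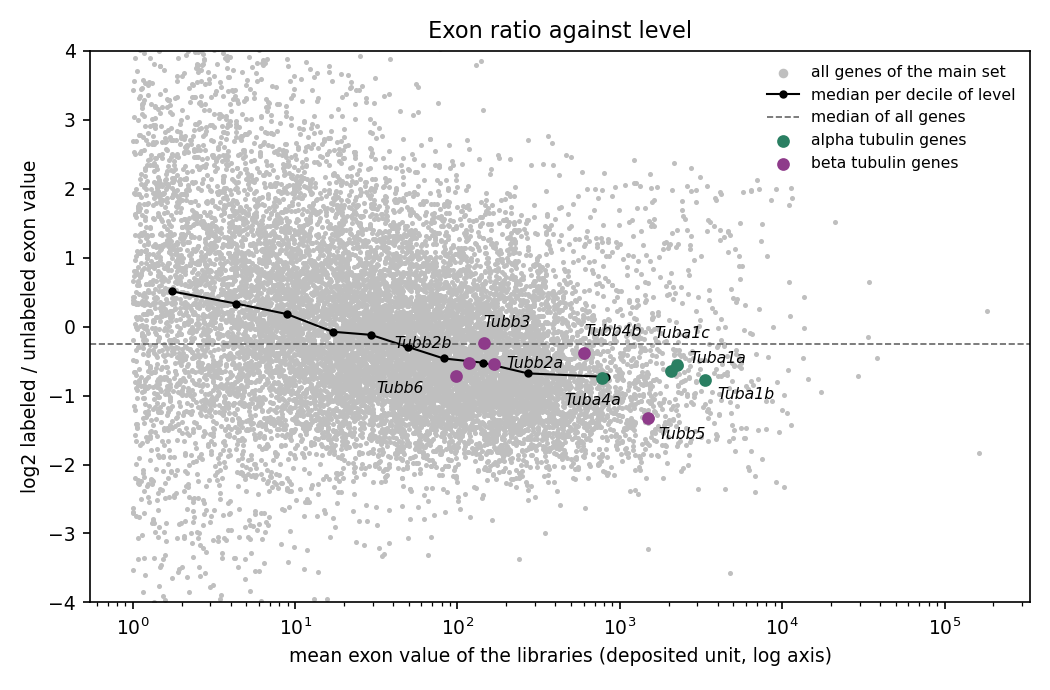
Log2 labeled to unlabeled exon ratio against the mean exon value of the libraries (log axis) for the main genes (grey), with the median per decile of level (black) and of all genes (dashed), and the alpha (green) and beta (purple) tubulin genes. Points beyond the axis limits are not drawn. Tubb5, at a ratio of 0.397, is the lowest of the 10, and Tubb3 and Tubb4b lie above the black line.

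Intron RNA, which stands for unspliced RNA, was higher in labeled RNA for each of the 10 genes, beside 97.2% of all genes. The median labeled to unlabeled intron ratio over 13283 genes was 3.89, and the median of the 10 was 4.72. Of the 10, 3 were 2-fold or more above the median gene, beside 9.29% of all genes, and 1 was 2-fold or more below, beside 10.5%. The 3 were Tubb2b, with intron values of 25.6 in labeled and 1.62 in unlabeled RNA and a ratio of 15.8, Tuba1c, with 67.4 and 4.72 and a ratio of 14.3, and Tuba1a, with 19.3 and 1.85 and a ratio of 10.4. The single low gene was Tuba4a, with 112.7 and 96.1 and a ratio of 1.17. The remaining genes lay within 2-fold of the median gene. Tuba1b had 109 and 23.0, a ratio of 4.73, and Tubb5 had 176 and 37.4, a ratio of 4.71. Tubb4b had 49.2 and 10.7, and Tubb3 14.8 and 3.48. Tubb6 had 8.99 and 1.25, a ratio of 7.19, at percentile 88.7 of all genes. Tubb2a had only 2.5 and 1.13, the lowest intron values of the 10 in both libraries, with a ratio of 2.21. Tubb2a thus had more exon RNA than Tubb2b in both libraries, and far less labeled intron RNA.

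The intron to exon ratio within a library needs no scaling between the libraries, and it is the observable from which the study derived rates. It was lower in tubulin transcripts than in most. Over the 17 transcripts its median was 0.0674 in labeled and 0.00547 in unlabeled RNA, beside 0.570 and 0.111 over the 31386 transcripts of the main transcript set. In each of the 17 the labeled ratio was the higher, as in 92.2% of all transcripts. For the leading transcripts, 1 per gene, the medians were 0.103 and 0.00798, beside 0.473 and 0.0931 over 12652 genes.

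Tuba1a had the lowest ratios of the 10 leading transcripts in both libraries, 0.0106 in labeled and 0.000687 in unlabeled RNA, at percentiles 0.466 and 0.0948 of all leading transcripts. Tubb2a followed in labeled RNA with 0.0182, and had 0.00567 in unlabeled RNA. Tuba1c had 0.0416 and 0.00186, and Tuba1b had 0.0444 and 0.00547. In these 4 genes the labeled ratio stayed under the 3rd percentile of all leading transcripts. They share many windows with other genes, but so do Tubb4b, at percentile 8.07, and Tubb2b, at 28.7. A link to the sharing was not tested. Tubb4b had 0.0944 and 0.0158, Tubb3 had 0.111 and 0.0222, and Tubb6 had 0.122 and 0.0103. Tubb5-201 had 0.127 in labeled but 0.00214 in unlabeled RNA. Its labeled to unlabeled quotient was at percentile 99.3 of all leading transcripts. Tubb2b, at 0.266 and 0.0117, had the second highest labeled ratio after Tuba4a.

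Low intron to exon ratios go with high levels in these libraries, and with a short span in labeled RNA. The median labeled ratio over leading transcripts fell from 1.45 in the lowest decile of mean exon value to 0.134 in the highest, and it rose from 0.206 in the shortest decile of span to 0.712 in the longest. Spans of the tubulin genes were short, with a median of 3800 bases for the leading transcripts, beside 20758 for all. Among leading transcripts of the same level decile, Tuba1a lay at percentile 3.71 in labeled RNA, Tubb2a at 0.949, Tuba1c at 15.7 and Tuba1b at 16.7. Tubb6 lay at 10.8 and Tubb3 at 16.05. Tubb4b, at percentile 36.3, Tubb5, at 48.0, Tubb2b, at 52.6, and Tuba4a, at 56.3, were nearer to the middle of their decile. In unlabeled RNA the percentiles within the level decile were 0.711 for Tuba1a, 2.53 for Tubb2a, 3.55 for Tuba1c, 4.27 for both Tubb5 and Tubb6, 9.09 for Tubb2b and 14.2 for Tuba1b. Tubb3, at 27.8, and Tubb4b, at 46.1, were higher, and Tuba4a, at 97.0, lay near the top of its decile.

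In the plane of the ratios, some areas cannot be reached in the model of synthesis, processing and degradation used by the study. They hold a labeled ratio of 1 or more, or one that does not exceed the unlabeled ratio. Points outside these areas are not always reached either. No tubulin transcript had a labeled ratio of 1 or more, beside 28.2% of all transcripts, and none was below the diagonal of equal ratios, beside 5.10%. Of the 17, 16 lay between the diagonal and the line on which the labeled ratio is 1/(2 − unlabeled ratio), beside 44.2%, and only Tuba4a-204 lay above that line, beside 22.5%. All 10 leading transcripts lay in the area between, beside 50.9% of leading transcripts, while 22.7% of these had a labeled ratio of 1 or more and 6.24% lay below the diagonal.

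**Figure D4:**
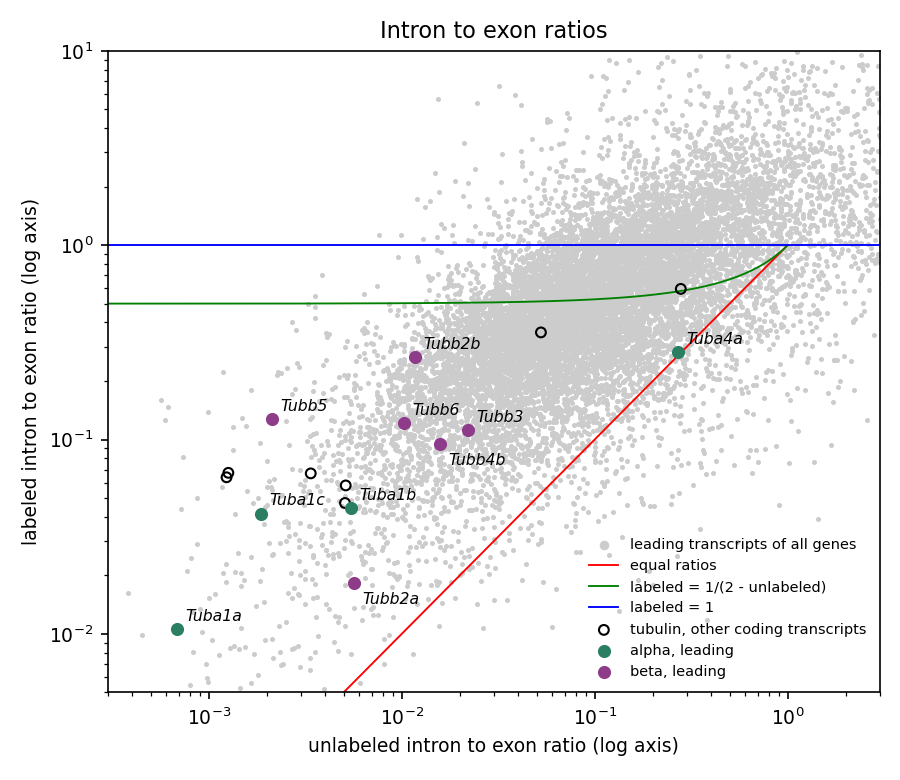
Labeled against unlabeled intron to exon ratio on log axes, for leading transcripts of all genes (grey), leading transcripts of the alpha (green) and beta (purple) genes, and the other tubulin transcripts (open circles). The red line marks equal ratios, the green line 1/(2 − unlabeled ratio) and the blue line a labeled ratio of 1, and points beyond the axis limits are not drawn. All leading tubulin transcripts lie between red and green, most of them toward the lower left of the cloud, and Tuba4a lies next to the red line.

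Tuba4a depended on which transcript was read. Its leading transcript, Tuba4a-206, has 2 exons and a coding part of 225 bases, and its ratios of 0.281 in labeled and 0.271 in unlabeled RNA were almost equal. Tuba4a-204 had 0.596 and 0.279. The other 5 transcripts had labeled ratios from 0.0471 to 0.0674 and unlabeled ratios from 0.00124 to 0.00513, within the range of the other tubulin genes. These 5 had intron values of 2.55 to 6.32 in labeled and 0.160 to 0.940 in unlabeled RNA. Tuba4a-206 had 48.0 and 60.1, and Tuba4a-204 had 45.7 and 34.0, so that most intron RNA of the gene was assigned to these 2 transcripts. Of the intron bases of Tuba4a-206, 61.8% are exon in another Tuba4a transcript, and of Tuba4a-204 61.6%. For the other 5 this share was 5.59 to 18.9%. The part of such overlap in the values was not tested.

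A like overlap touched other members. It was 51.9% of the intron bases of Tubb4b, 39.0% of Tubb5-201 and 31.5% of Tubb5-202, and 0 for Tuba1a, Tubb2a, Tubb2b and Tubb3. Tubb5-201, the full-length form, had intron values of 69.2 in labeled and 3.15 in unlabeled RNA. The short Tubb5-202 had 106.9 and 34.2, so it held most of the unlabeled intron RNA of the gene. With the leading transcript alone, the intron ratio of Tubb5 was 2.45 on the log2 scale above the median gene, instead of 0.28 for the gene as a whole. Transcripts of other biotypes carried tubulin reads too. The retained-intron transcript Tuba1b-202 had an exon value of 672 in labeled and 1368 in unlabeled RNA, and Tubb5-204 had 698 and 1487, which is above the leading Tubb5-201 in labeled RNA, at 543, and close to its 1474 in unlabeled RNA.

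Rates were computed with the equations of the study for the leading transcripts. None of the 10 had an exact solution, so no pair of rates was found that gives their observed ratios. The same held for 62.9% of the 8995 leading transcripts with a labeled ratio under 1 and above the unlabeled one. Each tubulin value below is therefore the best fit with the rates held to 1 equation of the study, and not the nearest fit of all. The fitted ratios missed the observed ones. The distance in natural log units reached from 0.330 for Tubb2b to 3.45 for Tuba1a. The median degradation half-life of the 10 was 42.6 min, beside 19.6 min for all. The values for all, here and for processing below, mix 5662 such fits with exact solutions for the rest. The medians of the 10 and of all are thus not alike in kind. Tuba1a had the longest, at 257 min, then Tubb2a at 206 min, Tuba1b at 82.1 min and Tuba1c at 75.1 min. Tubb4b had 45.0 min, Tubb3 40.2 min, Tubb6 32.1 min and Tubb5 25.2 min. The shortest were Tuba4a, at 23.5 min, and Tubb2b, at 11.4 min. The processing half-life had a median of 2.53 min, beside 3.74 min for all, and reached from 1.71 min for Tubb5 to 8.96 min for Tuba4a.

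These half-lives hold only under the way chosen to fit a transcript without a solution. Fitted over both variables at once, the median became 5.98 min and the range 1.38 min for Tuba4a to 10.5 min for Tuba1a. With the second library read as total RNA it became 65.5 min, and the order changed, with Tubb5 the longest at 409.8 min and Tubb2a, at 18.6 min, the second shortest after Tuba4a, at 2.04 min. The close paralogs Tubb2a and Tubb2b, at 206 and 11.4 min above, had 6.71 and 5.05 min in the fit over both variables, and with total RNA their order turned, to 18.6 and 157.7 min. After subtraction of an assumed leakage Tubb2b had 5.25 min and Tubb5 14.05 min.

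By the same 4 values of the leading transcript, which were level, exon ratio and the ratios in each pool, the genes nearest to Tuba1b were Hspd1, a mitochondrial chaperonin, at a distance of 0.301 SD units, Eif4a1, a translation initiation helicase, at 0.361, and Serbp1, at 0.392. Hspd1 had an exon value of 1717 in labeled and 2840 in unlabeled RNA. Nearest to Tubb5 were the proteasome subunit Psmd1, at 0.451, Hdgf, at 0.493, and the small GTPase Rab1a, at 0.590. Psmd1 had 338 and 978, with ratios of 0.108 and 0.00360.

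Of 10 other tubulin genes, 9 were in the main gene set, with a median exon ratio of 0.874. Tubb4a, a brain isotype, had 52.3 in labeled and 148.9 in unlabeled RNA and was low. Its level was within the range of the lower beta members. Tubb1, with 0.590 and 1.86, was low too. Tuba8, with 7.33 and 4.19, and Tube1, with 21.7 and 12.7, were high. Tubg1, the gamma tubulin that nucleates microtubules, had 35.1 and 54.8. In the gamma-tubulin ring complex 1 of 8 genes was high, Mzt2 with 41.0 and 9.29, and 1 was low, Mzt1 with 49.5 and 132.8, while the most abundant, Tubgcp4, had 262.5 and 381.

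Lists of genes that act on tubulin had median exon ratios from 0.627 to 1.75. The CCT chaperonin, which folds alpha and beta tubulin, had no gene high or low among the 7 measured, with a median ratio of 0.872. Its most abundant gene, Tcp1, had 2176 in labeled and 3239 in unlabeled RNA, a level like that of Tuba1a. Among 13 tubulin folding cofactors and prefoldin genes 7 were high and none low, with a median of 1.75. Examples are Pfdn5, with 909 and 471, Pfdn4, with 853 and 446, Tbca, with 585 and 333, and Arl2, with 26.5 and 7.68. Of the 13 genes for the feedback on tubulin mRNA, 5 were low and none high, with a median of 0.627. The low ones were CCR4-NOT genes, such as Cnot7, with 318 and 1384, and Cnot1, with 498 and 1684. Ttc5 had 77.2 and 68.7, and Scaper 56.1 and 35.4, neither of them 2-fold from the median gene. The counts of high and low genes stand beside 21.9% and 14.8% of all genes. The exon ratio moved with length and level over all genes. The genes of these and the other lists were not set against genes of the same length or level. The part of either in the list counts was not tested.

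Proteins that bind microtubules or modify tubulin gave different counts. Of 21 genes for microtubule-associated and destabilizing proteins 9 were low and 1, Stmn3, was high, with a median ratio of 0.435. Stmn3 had only 2.35 in labeled and 1.28 in unlabeled RNA, close to the filter on low values. Tpx2, a spindle assembly factor, had 694 in labeled and 2229 in unlabeled RNA, and Kif2a, a depolymerising kinesin, 597 and 1580. Map4, with 871 and 1531, and Stmn1, with 1388 and 1472, were neither high nor low. Of 14 measured genes for tubulin-modifying enzymes 2 were high, Atat1, the alpha tubulin acetyltransferase, with 96.4 and 50.9, and Svbp, with 61.4 and 32.3, and 1 was low, Ttll12 with 42.2 and 135.5. The most abundant, Ttll5, a polyglutamylase, had 449.6 and 524. For another cytoskeletal family, 5 of 6 actin genes were low. Actb had 2414 and 9891, a ratio of 0.244, and Actg1 had 3275 and 7251, a ratio of 0.452, so Actb lay below Tubb5 and Actg1 between Tubb5 and the alpha tubulins.

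Because several tubulin isotypes are neuronal, markers of other cell types were read beside them. All 9 pluripotency markers were in the main gene set, among them Dppa5a, with 3263 in labeled and 1235 in unlabeled RNA, Nanog, with 1099 and 2416, and Pou5f1, with 783 and 1198. Of 13 neuron and neural progenitor markers 12 were in it. Dcx had 0.610 and 0, Rbfox3 4.15 and 31.0, and Elavl3 5.00 and 5.04, which is far below Tubb3, while Stmn2 had 367 and 232, Nefl 93.4 and 160.6, and Pax6 68.7 and 70.5. Of the 7 endoderm and mesoderm markers 3 were in the main gene set, Gata4 with 4.87 and 5.88, Eomes with 4.65 and 2.26, and Mixl1 with 0.8 and 3.42, while Sox17, Foxa2 and Gata6 had exon values of 0 in both libraries. Of the 6 fibroblast markers 2 were in it, Thy1 with 6.03 and 14.45 and Col1a1 with 0.910 and 1.78, while Col3a1, Pdgfrb and Postn were at 0 in both. The part of other cells in the levels of Tubb3 and Tubb2b was not tested.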

How the data were processed

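Each pool, labeled and unlabeled, was measured in 1 library of replicate 1. After removal of ribosomal reads, the authors aligned the rest with STAR 2.5.0 to exons and introns of Ensembl v91 (GRCm38/mm10) and quantified them with RSEM. They deposited 1 relative abundance signal per transcript for exons and 1 for introns, with each column summing to 10 times a TPM total. All values are in that unit.

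Biotypes, coordinates and sequences were from GENCODE M21, which held 90.9% of the transcript IDs. Exon and intron values were summed over protein-coding transcripts of a gene. Genes were kept with a mean exon value above 1 and both values above 0, and transcripts with a mean exon value above 1 and exon and intron values above 0 in both libraries. Ratios were centred on the median log2 ratio, with 2-fold as the threshold. Rates followed the equations of the study. The search for exact solutions was tested on simulated rates. The fit used where there is no solution, as for all 10 leading tubulin transcripts, was not tested. All 10 members were named, with the genes nearest to Tuba1b and Tubb5, and of each other list its most abundant gene and genes 2-fold or more from the median, at most 4 in all. Further genes, such as Ttc5, Scaper, Map4, Stmn1, Actg1, Tubg1 and the markers, were named after their values were seen. The members and lists were chosen with earlier results of these data known. Alternatives were other filters, biotypes, transcripts, pseudocounts, centrings and fits, and subtraction of 0.139 times the unlabeled value as leakage. Leakage was not measured. That factor was taken from the low end of the labeled to unlabeled exon ratios of coding transcripts in these libraries. Other replicates were not analysed here. The tools were Python 3.11.15 with numpy 2.4.6, pandas 2.3.3 and matplotlib 3.10.9.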

Additional observations from a re-analysis of the deposited data

How the results depend on the processing

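With 1 library per pool, no library could be left out. No paired analysis was possible because each pool has a single library and no test was made. The median log2 exon ratio of the 10 genes, −0.35 relative to all genes, was −0.0083 against genes of the same level decile, where almost none of the difference was left, and lay between −0.70 and −0.20 under the other alternatives. The single gene 2-fold or more below the median, Tubb5, was lost with a mean exon value above 10, with centring on transcripts and with centring on genes of the same level decile, each leaving 0, and the last left 6 genes below the median. Against its length decile Tubb5 was at −0.96 and no longer 2-fold below, and Tuba4a, at −1.02 by the length of the short Tuba4a-206, was. The median labeled intron to exon ratio was 0.103 over leading transcripts and 0.109 after subtraction of leakage, against 0.0674. The median degradation half-life was 5.98 min fitted over both variables and 65.5 min with the second library read as total RNA, against 42.6 min. On the log2 scale, the exon ratio of Tubb3 changed sign to −0.032 with no filter, −0.34 with all biotypes, −0.021 with a pseudocount and −0.21 against its length decile. Tubb4b changed to 0.017 with a mean exon value above 10 and to 0.34 against its level decile, where Tuba1a became 0.17 and Tuba1c 0.084. The intron ratio of Tubb4b became −0.068 with all biotypes. The cause of these changes was not tested. Of 80 values for the exon ratio of single genes under alternatives, 72 kept their sign and moved by less than 1.5-fold. So did 46 of 50 for the intron ratio and 30 of 50 for the half-life. Many of these outcomes were fixed in advance. With no filter or a higher one, only the median of all genes changed. All 10 exon values then moved by the same amount, and so did all 10 intron values. With the leading transcript alone, this was so for the genes with 1 coding transcript. Such alternatives do not test single genes. For the half-life, many of the 30 were fixed too. None of the 10 genes had 2 solutions, so the alternative choice between 2 solutions could not change a half-life. Summing over transcripts could change only Tuba4a and Tubb5, the genes with more than 1 coding transcript. Fitted over both variables, every half-life moved. The unknown depth leaves low intron values, such as those of Tubb2a, without an error.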
